A study of Mus musculus with 28 samples.

Results

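The p53 family comprises Trp53, Trp63 and Trp73, which encode the transcription factors p53, p63 and p73, and the core p53 targets described with them are Mdm2, Cdkn1a, Phlda3, Ccng1 and Sesn1. The members were all probe sets on the array that the platform annotation assigns to 1 of these 8 symbols and to no other gene. A total of 19 probe sets matched, for 7 of the 8 genes and out of 45037 probe sets for 18193 genes. Trp53 is not analysed here, because no probe set carries its symbol in the annotation used. Of the 19 probe sets, 15 passed the filter on low signal (2 or more of the 28 arrays had to exceed their own median). These 15 hold 3 probe sets of Trp63, 1 of Trp73, 2 of Mdm2, 2 of Cdkn1a, 1 of Phlda3, 3 of Ccng1 and 3 of Sesn1.

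RNA from tissues of mouse embryos labelled p63 KO or WT (wild type), all of strain Balb/c, was hybridised to Affymetrix whole-genome mouse expression arrays. The E18 tissues (embryonic day 18) were bladder, both parts of the stomach (proximal and distal) and both parts of the intestine (small and large), and bladder was also taken at days 15 (E15) and 19 (E19). Each of the 14 groups of genotype, tissue and stage has 2 arrays, and the comparison in each tissue is KO minus WT. The labels give no allele, no sex and no number of embryos behind an array. They do not say whether the 2 arrays of a group come from separate animals, so p-values measure the spread between these samples, which may be technical. The labels' description speaks of stem cells while the protocol speaks of tissues. The mean log2 level of 7 urothelial markers was 12.8 in WT E18 bladder and 7.27 in WT proximal stomach, and that of 10 squamous markers was 7.22 and 13.5. Values are log2 signals as deposited, and a difference of 1 on this scale is a change of 2-fold.

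p63 maintains the basal layer of stratified epithelia, including the squamous lining of the proximal stomach of the mouse and the urothelium of the bladder. Its gene yields proteins with and without an amino-terminal transactivation domain. p53, p63 and p73 bind the same kind of DNA site, a pair of short half-sites, and so share many target genes. Among the targets, Mdm2 is the ubiquitin ligase that marks p53 for degradation and closes a negative feedback loop. Cdkn1a encodes p21, an inhibitor of cyclin-dependent kinases that arrests the cell cycle. Phlda3 encodes a repressor of Akt signalling, Ccng1 the atypical cyclin G1, and Sesn1 a sestrin that restrains mTORC1 signalling.

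For 4 of the 5 targets, Phlda3 being the exception, a promoter window holds at least 1 half-site of the kind that this family binds in pairs. Mdm2 and Sesn1 have a lone half-site without a pair. The half-sites are shown as a feature of these 4 genes. Promoter windows of 300 bases, from 250 bases before to 50 bases after the gene's start, were taken from RefSeq on the mouse build GRCm38.p6. They matched 7 of the 8 members with 10 windows, Trp63 being the member without one. The published consensus of the p53 half-site, 10 bases long and equal to its own reverse complement so that both strands are searched at once, was present without mismatch in 5 of the 10 windows, against 8.36% of all 32851 windows. The 5 were 1 each of Mdm2, Cdkn1a, Ccng1, Sesn1 and Trp53. That of Trp53, which has no signal here to set beside it, is not printed. A pair of such half-sites with at most 13 bases between them was present in 1 of the 10, that of Cdkn1a, against 0.0731% of all windows. The full site of 20 bases with at most 1 mismatch was found in 2 of the 10, those of Cdkn1a and Ccng1, against 0.0883%. The windows of Phlda3 and Trp73 held no half-site, which says only that these letters are not in these windows. Cdkn1a and Sesn1 each have another listed start, whose window held no half-site and no 20-base site. The Cdkn1a distances below are from its first listed start, and the window of its second listed start is chr17:29093519-29093818. In the sequences that follow, each 30 bases long and written 5′ to 3′ on the gene's strand, capitals mark the half-site.
Cdkn1a, 73 bases before the start, chr17:29090896-29090925, plus strand: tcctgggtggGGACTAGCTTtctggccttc
Cdkn1a, 51 bases before the start, chr17:29090918-29090947, plus strand: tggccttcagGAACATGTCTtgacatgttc
Ccng1, 185 bases before the start, chr11:40755452-40755481, minus strand: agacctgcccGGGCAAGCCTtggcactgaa
Mdm2, 186 bases before the start, chr10:117710925-117710954, minus strand: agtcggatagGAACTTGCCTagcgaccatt
Sesn1, 173 bases before the second listed start, chr10:41887256-41887285, plus strand: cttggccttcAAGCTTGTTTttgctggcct
The lower-case bases after the second Cdkn1a half-site complete the 20-base site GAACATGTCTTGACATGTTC. The lower-case bases before the Ccng1 half-site complete its 20-base site, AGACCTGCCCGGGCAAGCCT, which starts 195 bases before the gene's start. These matches are a description of the letters and not of binding. The targets were listed as known p53 targets, so their shares beside those of all windows are no independent support.

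Trp63 itself did not drop uniformly on the arrays labelled p63 KO: its signal was lower in bladder at E19 and not lower in proximal stomach. In WT tissue, probe set 1418158_at, the brightest of the 4, averaged 13.24 in proximal stomach, 12.41 in bladder at E18, 11.97 at E19 and 10.75 at E15. The same probe set averaged 7.12 in WT distal stomach, 6.40 in WT large and 5.71 in WT small intestine. The step from bladder E15 down to distal stomach was 3.64 (SE 0.38, adjusted p = 1.38e-07), while proximal stomach and bladder at E18 differed by 0.82 without passing the test (adjusted p = 0.0877). By this probe set Trp63 was higher in the WT tissues with a stratified lining than in the glandular ones. Probe set 1459581_at gave the same split, with bladder E15 the lowest of the stratified groups and 1.09 above distal stomach (adjusted p = 0.00607). Probe set 1452027_a_at did not give this split. It averaged 8.75 in proximal stomach and 7.45 in E18 bladder, but 6.20 in E15 bladder against 6.19 in distal stomach (adjusted p = 0.962). E19 bladder was the lowest of the 7 WT groups at 5.98. This probe set exceeded the array's own median on 4 of the 28 arrays, those of proximal stomach. Its order among the other groups therefore rests on low signals.

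In E19 bladder, 1418158_at read 11.67 and 12.28 on the WT arrays and 9.44 and 9.62 on the KO arrays. The groups did not overlap, and the difference of −2.44 (SE 0.38, adjusted p = 0.000166, limma) is a level 5.44-fold lower in KO. At E18 the WT arrays read 12.29 and 12.54 and the KO arrays 11.37 and 11.26. The E18 groups did not overlap either, but the difference of −1.10 did not pass the test over all 28 arrays (adjusted p = 0.167) and did so when only the 4 arrays compared were fitted (adjusted p = 0.0102). At E15 the values were 10.73 and 10.78 in WT and 9.76 and 10.52 in KO, a difference of −0.61 (adjusted p = 0.351). By this probe set the KO arrays of all 3 bladder stages lay above every WT distal stomach and intestine array. By 1452027_a_at they did not, since the E19 KO arrays read 5.79 and 5.31 and the WT distal stomach arrays 6.18 and 6.20. All of these values lie below the medians of their arrays.

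In proximal stomach the same probe set read 13.16 and 13.31 in WT and 13.67 and 13.78 in KO. Both KO arrays were the higher ones, and the difference of 0.49 missed the threshold (SE 0.38, adjusted p = 0.372), while a fit of only the 4 arrays compared gave an adjusted p of 0.00469. The other Trp63 probe sets were higher on the arrays labelled KO. Probe set 1459581_at read 9.34 and 9.85 in WT and 10.97 and 11.49 in KO (difference 1.63, SE 0.31, adjusted p = 0.000365), and 1452027_a_at read 8.71 and 8.79 in WT and 9.71 and 9.61 in KO (difference 0.91, SE 0.19, adjusted p = 0.00113). For neither did the groups overlap. The fourth, 1451876_a_at, did not pass the filter. It read 6.43 and 6.44 in WT and 7.73 and 7.38 in KO, and without the filter its difference of 1.12 had an adjusted p of 0.000211. The labels do not give which part of Trp63 is deleted or which part each probe set reads, so a probe set outside the deleted part would check nothing, and Trp63 does not verify the label of the KO proximal stomach arrays. The direction of every KO minus WT difference in proximal stomach therefore rests on that label.

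**Figure D1:**
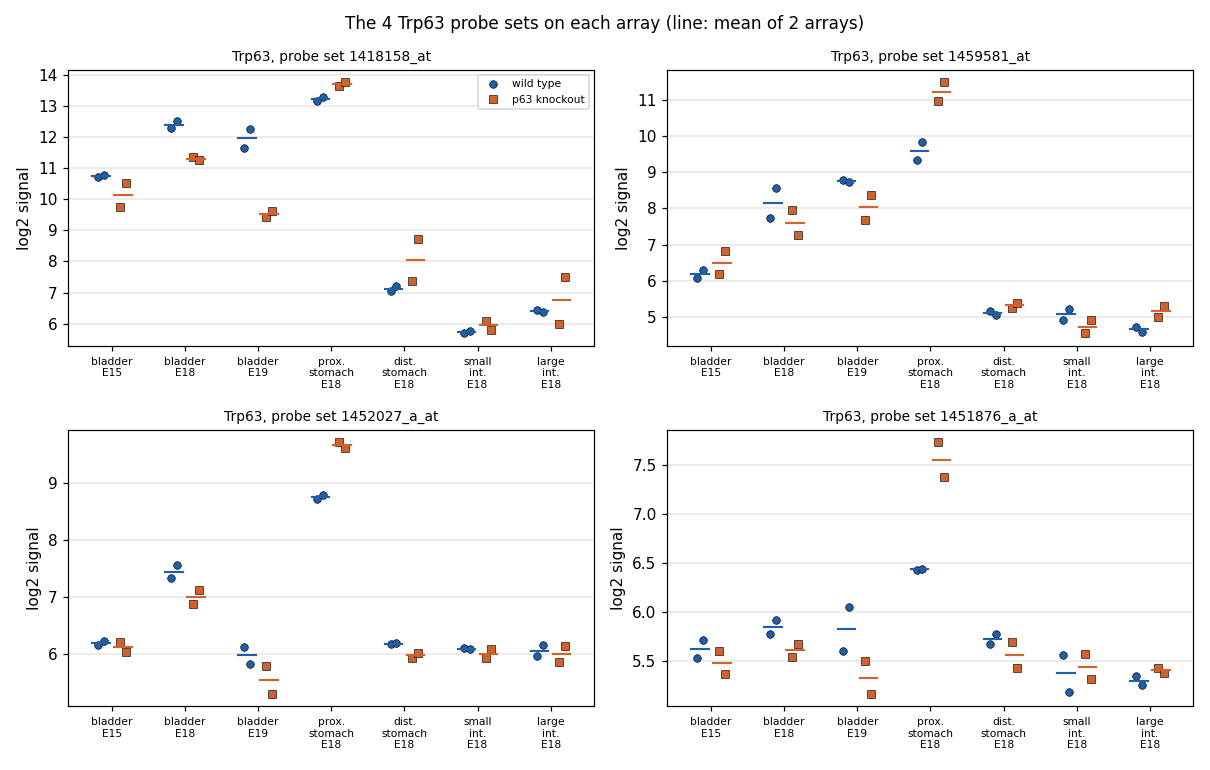
Log2 signal of the 4 Trp63 probe sets (vertical axes, each with its own range) on all 28 arrays, by tissue and embryonic day. Circles are WT arrays, squares are arrays labelled p63 KO, and short lines are means of 2 arrays. In E19 bladder 1418158_at lies at 11.67 and 12.28 in WT and at 9.44 and 9.62 in KO, while in proximal stomach the KO squares lie above the WT circles for each of the 4 probe sets.

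In the bladder, the lower-signal probe sets of Trp63 did not pass the test in KO minus WT at any stage. At E19 1459581_at differed by −0.73 (adjusted p = 0.104) and 1452027_a_at by −0.43 (adjusted p = 0.126). The KO minus WT difference of proximal stomach exceeded that of E18 bladder by 2.18 for 1459581_at (SE 0.44, adjusted p = 0.00117) and by 1.34 for 1452027_a_at (SE 0.27, adjusted p = 0.00129). The latter probe set passed the filter only through the proximal stomach arrays, so its test sets that tissue against one of low signal. In distal stomach 1418158_at read 7.03 and 7.20 in WT and 7.38 and 8.73 in KO. The second KO array was the high one, and the difference of 0.94 did not pass (adjusted p = 0.9995). The summed log2 level of 10 squamous markers was also highest on that array among the 4 of distal stomach, at 61.4 against 57.6 to 59.3 on the others. Small intestine read 5.68 and 5.75 in WT and 6.09 and 5.80 in KO, and large intestine 6.44 and 6.36 against 5.99 and 7.51. Neither pair of groups passed the test (adjusted p = 0.981 and 0.9998). The second KO array of large intestine, with the 7.51, likewise had the highest squamous marker level of its tissue, 66.9 against 58.0 to 61.8 on the others. The part of the squamous markers in both Trp63 values was not tested.

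The genes whose group means ran most nearly in parallel with Trp63 1418158_at over the 14 groups, leaving out the members, were Prom2 (r = 0.97), Ecm1 (r = 0.96), Apcdd1 (r = 0.96), Arhgef4 (r = 0.95) and Ppp1r13l (r = 0.94). Ppp1r13l encodes iASPP, an inhibitory binding partner of p53. These correlations describe 14 group means that share tissues and stages, and carry no test.

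Trp73, the third family member, fell by more than any other member probe set in proximal stomach, among the 15 tested. Its probe set 1452325_at exceeded the array's own median on 2 of the 28 arrays, those of WT proximal stomach. It thus passed the filter only through the group where it is high, so a fall there was partly set by the filter. Probe set 1452325_at read 9.42 and 9.05 on the WT arrays and 6.14 and 5.79 on the arrays labelled KO. The groups lay far apart, and the difference of −3.26 (SE 0.24, adjusted p = 1.27e-09, limma) is a level 9.61-fold lower in KO. WT proximal stomach held the highest Trp73 level of the 7 WT groups, 1.89 above E19 bladder (adjusted p = 6.82e-07), which in turn was 1.17 above E18 bladder (adjusted p = 0.00029). The neighbours below E18 bladder did not differ beyond their spread. The KO proximal stomach values lay on either side of those of WT distal stomach, 5.86 and 5.88.

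Outside proximal stomach no difference of Trp73 passed the test. There 1452325_at lay below the array's own median on every array, and the part of low signal in the absent calls was not tested. In E19 bladder, where the array medians were 7.48 to 7.53, 1452325_at read 7.20 and 7.48 in WT and 7.30 and 6.99 in KO (difference −0.20, adjusted p = 0.627), and the groups overlapped. In E18 bladder it read 6.47 and 5.88 in WT and 5.45 and 6.14 in KO (difference −0.38, adjusted p = 0.561). The difference between the proximal stomach effect and that of the other E18 tissues was tested itself and was −2.88 against bladder, −2.91 against distal stomach, −3.47 against small intestine and −3.34 against large intestine, with adjusted p from 2.35e-07 to 3.25e-06. In these tests 18.2%, 14.7%, 18.4% and 16.4% of all probe sets passed. Each of these calls held with any 1 of the 8 arrays of its comparison left out, and each sets the proximal fall against a tissue of low Trp73 signal. The second Trp73 probe set, 1427697_a_at, did not pass the filter. It read 7.42 and 7.19 in WT proximal stomach and 6.42 and 6.38 in KO, and without the filter the difference of −0.91 had an adjusted p of 0.0024.

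**Figure D2:**
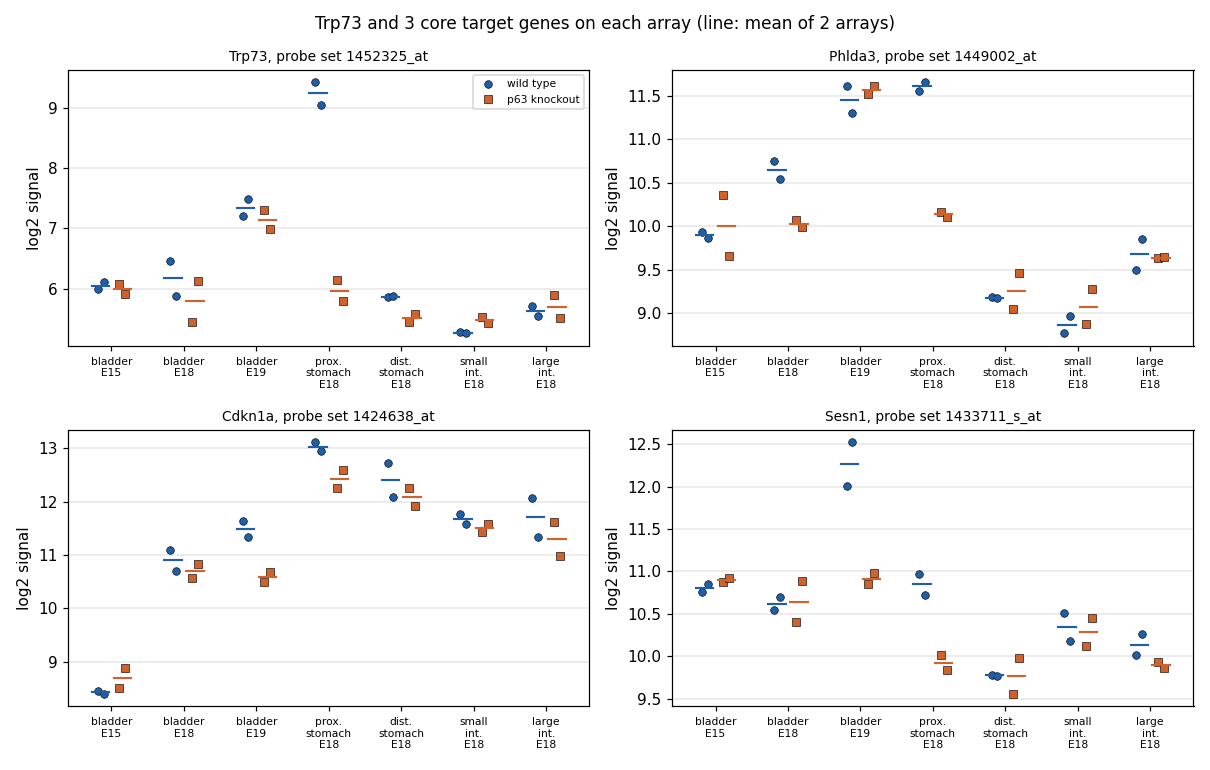
Log2 signal of Trp73 and of 3 target genes (vertical axes, each with its own range) on all 28 arrays, by tissue and embryonic day. Circles are WT arrays, squares are arrays labelled p63 KO, and short lines are means of 2 arrays. Trp73 and Phlda3 separate in proximal stomach (9.42 and 9.05 against 6.14 and 5.79, and 11.56 and 11.66 against 10.17 and 10.11). Cdkn1a and Sesn1 separate in E19 bladder and also in proximal stomach, where the Cdkn1a probe set shown missed the threshold.

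In proximal stomach, 8 of the 15 member probe sets passed the test, 3 higher and 5 lower in KO, where 28.1% of all 28866 probe sets tested passed, 16.4% higher and 11.7% lower. The 8 belong to 6 of the 7 genes, Mdm2 being the one without a call. Over the 15 the median difference was −0.04, and over all probe sets it was 0.05. The values of 13 of the 15 did not overlap between KO and WT, as in 61.6% of all probe sets. Several of the 15 are probe sets of 1 gene, so the 15 are not independent.

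Cdkn1a, the p21 gene, was lower in KO proximal stomach by 1 of its 2 probe sets. Probe set 1421679_a_at read 11.54 and 11.13 in WT and 10.27 and 10.41 in KO, without overlap (difference −0.998, SE 0.28, adjusted p = 0.0111). Probe set 1424638_at read 13.11 and 12.95 in WT and 12.26 and 12.59 in KO, also without overlap (difference −0.61, SE 0.24, adjusted p = 0.0673). In the main fit over all 28 arrays the brighter probe set missed the threshold. It passed with only the 4 arrays compared (adjusted p = 0.00769), with quantile normalization (adjusted p = 0.0473) and with a block for replicate number (adjusted p = 0.0218). The call of 1421679_a_at was lost without KO replicate 1 (−0.93, adjusted p = 0.0691) and without WT replicate 1 (−0.79, adjusted p = 0.124). Both probe sets were highest in proximal stomach among the 7 WT groups and lowest in E15 bladder, and their group means ran together over the 14 groups (r = 0.97).

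Phlda3, the Akt repressor, fell in KO proximal stomach from 11.56 and 11.66 to 10.17 and 10.11. The groups did not overlap, and the difference of −1.47 (SE 0.20, adjusted p = 5.59e-06) is a level 2.77-fold lower. Distal stomach read 9.18 and 9.17 in WT and 9.04 and 9.46 in KO, so the KO proximal stomach remained above it. The proximal effect differed from that of distal stomach by −1.55 (adjusted p = 0.000384), of small intestine by −1.68 (adjusted p = 0.000152) and of large intestine by −1.43 (adjusted p = 0.000767). Each of these 3 calls held with any 1 array left out, but that against distal stomach was lost with the actin 3′ to 5′ difference as a covariate (adjusted p = 0.1). In E18 bladder, where Phlda3 read 10.75 and 10.55 in WT and 10.07 and 9.99 in KO, the groups did not overlap and the difference of −0.62 did not pass the test (adjusted p = 0.124).

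Sesn1, which encodes a stress-induced sestrin, was lower in KO proximal stomach by 2 of its 3 probe sets past the filter. Probe set 1433711_s_at read 10.97 and 10.72 in WT and 10.01 and 9.83 in KO (difference −0.93, SE 0.19, adjusted p = 0.00069). Probe set 1454699_at read 10.38 and 10.19 in WT and 9.55 and 9.32 in KO (difference −0.85, SE 0.18, adjusted p = 0.0011). In both the KO arrays were the lower ones without overlap. The third, 1438931_s_at, read 10.04 and 9.99 in WT and 9.51 and 9.77 in KO, also without overlap, and its difference of −0.37 did not pass (adjusted p = 0.21).

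Ccng1, the cyclin G1 gene, was higher in KO proximal stomach by 1 of 3 probe sets. Probe set 1420827_a_at read 11.80 and 12.002 in WT and 12.20 and 12.47 in KO (difference 0.43, SE 0.11, adjusted p = 0.0046), without overlap. The call was lost without KO replicate 2 (0.30, adjusted p = 0.113) and without WT replicate 1 (0.33, adjusted p = 0.0824). The other probe sets, 1450017_at and 1450016_at, differed by 0.24 and 0.28 without passing the test (adjusted p = 0.299 and 0.265). The probe sets of Ccng1 do not run alike over the 14 groups, with r of 0.14 and 0.11 between 1420827_a_at and the others and 0.96 between those others. WT proximal stomach was the lowest of the 7 WT groups for all 3.

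Mdm2, the feedback inhibitor of p53, showed no KO difference in proximal stomach that passed the test. Probe set 1423605_a_at read 11.96 and 11.76 in WT and 11.98 and 11.94 in KO (difference 0.10, SE 0.11, adjusted p = 0.568), and 1427718_a_at read 8.88 and 8.56 in WT and 8.87 and 8.50 in KO (difference −0.04, SE 0.20, adjusted p = 0.91). Both pairs of groups overlapped. Thus, of the 5 targets, Cdkn1a, Phlda3 and Sesn1 were lower by at least 1 probe set, Ccng1 was higher by 1, and Mdm2 had no call.

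**Figure D3:**
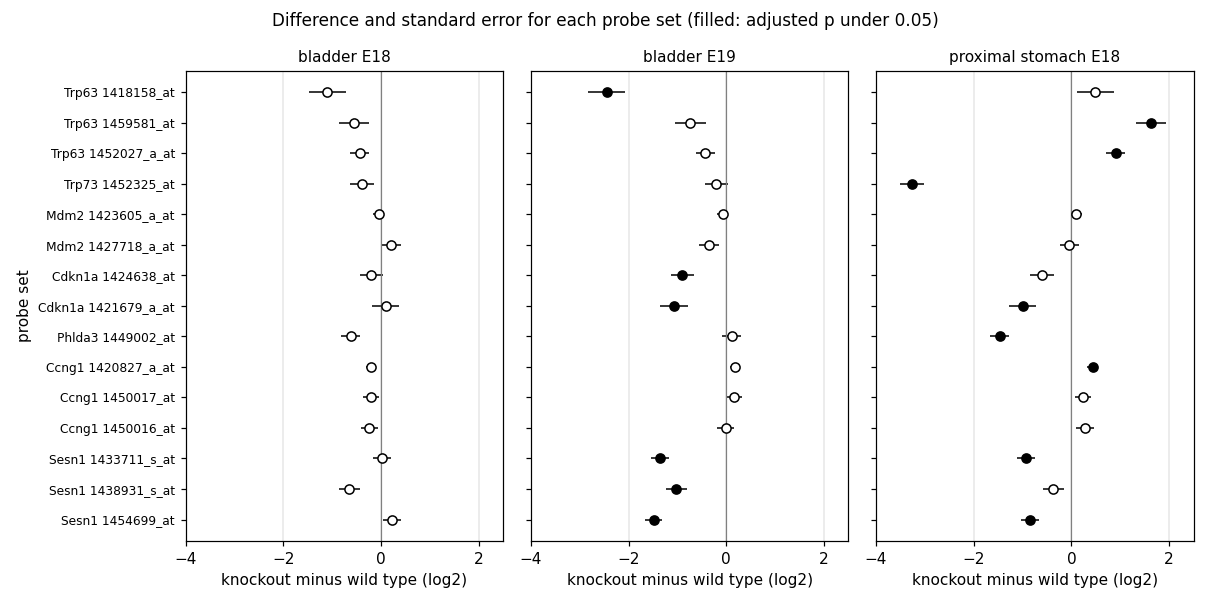
KO minus WT difference in log2 signal (horizontal axis) for the 15 member probe sets in bladder at E18, bladder at E19 and proximal stomach at E18. Points are differences of means of 2 arrays, bars are standard errors of the fit over 28 arrays, and filled points have an adjusted p under 0.05. In proximal stomach Trp73 lies farthest to the left at −3.26 and Trp63 1459581_at farthest to the right at 1.63, while in E19 bladder the 6 filled points all lie to the left.

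Measures of tissue composition and RNA moved with the proximal stomach comparison. Of all 13613 genes, each read by its probe set of highest mean, 17.7% were higher in KO there and 14.2% lower. Of 10 squamous markers 7 were lower in KO and none higher, and their summed log2 level was 133 to 136 in WT and 88.2 to 89.2 in KO. Of 9 basal markers 5 were lower, with a summed level of 111 to 113 in WT and 88.6 to 89.2 in KO. All 8 simple epithelium markers were higher, with a summed level of 72.0 to 75.9 in WT and 106 to 108 in KO, and 5 of 7 urothelial markers were higher and 1 lower. The difference between 3′ and 5′ actin probe sets, a measure of RNA integrity, was 0.97 and 0.88 in WT and 0.48 and 0.61 in KO. With that difference as a covariate, 4 of the 8 member calls remained, and the calls of Cdkn1a 1421679_a_at (adjusted p = 0.0585), Ccng1 1420827_a_at (0.151), Sesn1 1433711_s_at (0.144) and Sesn1 1454699_at (0.11) were lost. In whole tissue, fewer cells of a type and less RNA per cell cannot be told apart, and the part of the markers in these differences was not tested.

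In E19 bladder, 6 of the 15 member probe sets passed the test, all 6 lower in KO, where 19.2% of all 28866 probe sets passed and 8.93% were lower. The 6 belong to Trp63, Cdkn1a and Sesn1. The median difference over the 15 was −0.43, against 0.03 over all probe sets.

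Cdkn1a read 11.63 and 11.34 in WT and 10.50 and 10.68 in KO at E19 by 1424638_at (difference −0.90, SE 0.24, adjusted p = 0.0131). By 1421679_a_at it read 9.99 and 10.08 in WT and 8.99 and 8.93 in KO (difference −1.07, SE 0.28, adjusted p = 0.0112). Both probe sets separated the groups without overlap. The first call was lost without KO replicate 1 (−0.81, adjusted p = 0.0992) or WT replicate 1 (−0.75, adjusted p = 0.108). The second was lost without KO replicate 1 (−1.10, adjusted p = 0.0547), KO replicate 2 (−1.04, adjusted p = 0.0702) or WT replicate 2 (−1.03, adjusted p = 0.0618).

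Sesn1 was lower in KO by all 3 probe sets past the filter at E19. Probe set 1454699_at read 11.94 and 12.01 in WT and 10.51 and 10.47 in KO (difference −1.49, SE 0.18, adjusted p = 1.62e-05), 2.8-fold lower. Probe set 1433711_s_at read 12.01 and 12.52 in WT and 10.85 and 10.98 in KO (difference −1.35, SE 0.19, adjusted p = 5.86e-05), and 1438931_s_at read 12.34 and 12.39 in WT and 11.41 and 11.28 in KO (difference −1.02, SE 0.21, adjusted p = 0.0022). No pair of groups overlapped. The fourth probe set, 1444376_at, did not pass the filter and read 7.44 and 7.22 in WT and 6.31 and 6.31 in KO, with an adjusted p of 0.0028 without the filter.

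The remaining members had no call at E19. Phlda3 read 11.61 and 11.30 in WT and 11.52 and 11.61 in KO (difference 0.11, adjusted p = 0.747). Mdm2 1423605_a_at read 11.05 and 11.24 in WT and 11.09 and 11.06 in KO (difference −0.07, adjusted p = 0.719). Both pairs of groups overlapped. The other Mdm2 probe set, 1427718_a_at, read 9.54 and 9.65 in WT and 9.15 and 9.32 in KO, without overlap (difference −0.35, adjusted p = 0.246). The 3 Ccng1 probe sets differed by 0.18, 0.16 and −0.01, and none passed (adjusted p from 0.265 to 0.98).

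Markers moved with the E19 bladder comparison as well, where 13.4% of all genes were higher in KO and 6.49% lower. Of 9 basal markers 6 were lower in KO, with a summed level of 91.6 to 94.1 in WT and 71.5 to 71.7 in KO. None of 7 urothelial markers passed the test, with a summed level of 85.6 to 86.1 in WT and 87.3 to 87.4 in KO. Of 7 immune markers 2 were higher, with a summed level of 65.4 to 67.7 in WT and 70.2 to 70.7 in KO. The 8 simple epithelium markers had a summed level of 88.6 to 88.8 in WT and 92.3 to 92.6 in KO. For the 10 squamous markers it was 71.5 to 74.6 in WT and 69.1 to 71.1 in KO. The actin 3′ to 5′ difference was alike, at 0.70 and 0.70 in WT and 0.64 and 0.68 in KO, and all 6 member calls remained with it as a covariate. The part of the markers in the member differences was not tested.

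In E18 bladder none of the 15 passed with limma, where 1.96% of all probe sets passed, and 4 had an unadjusted p under 0.05, as did 13.3% of all. The basal markers were lower there too, 7 of 9, where 1.37% of all genes were lower. Their summed level was 91.4 to 93.8 in WT and 72.0 to 75.4 in KO. Single calls appeared under some alternatives, of Trp63 1418158_at with only the arrays compared, of Phlda3 with array weights (adjusted p = 0.0395), or of Sesn1 1438931_s_at without WT replicate 1 (−1.004, adjusted p = 0.0412).

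In E15 bladder 1 of the 15 passed, where 7.78% of all probe sets passed and 4.29% were lower. It was Mdm2 1427718_a_at, which read 8.45 and 8.24 in WT and 7.67 and 7.68 in KO (difference −0.67, SE 0.20, adjusted p = 0.0474). The groups did not overlap. The call was lost without each of the 4 arrays in turn, with an adjusted p of 0.296 without KO replicate 1, 0.0842 without KO replicate 2, 0.373 without WT replicate 1 and 0.0861 without WT replicate 2. The brighter Mdm2 probe set, 1423605_a_at, read 12.34 and 12.31 in WT and 11.88 and 12.29 in KO, where KO replicate 1 is the low array (difference −0.24, adjusted p = 0.207), and passed only without KO replicate 2 (−0.45, adjusted p = 0.0154). The actin 3′ to 5′ difference was 0.69 and 0.78 in WT and 1.33 and 1.12 in KO, and with it as a covariate the difference of 1427718_a_at was −0.23 (adjusted p = 0.9997). The Mdm2 probe sets ran against each other over the 14 group means (r = −0.57).

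In distal stomach, small intestine and large intestine none of the 15 passed with limma. Of all probe sets 0% passed in distal stomach, 0% in small intestine and 0.0624% in large intestine. An unadjusted p under 0.05 was found for 1, 0 and 1 of the 15 and for 3.47%, 4.35% and 4.44% of all probe sets. Cdkn1a 1424638_at was bright in each, with 12.73 and 12.08 in WT and 12.25 and 11.93 in KO distal stomach, 11.78 and 11.58 against 11.44 and 11.58 in small intestine, and 12.07 and 11.33 against 11.61 and 10.98 in large intestine. In each the KO mean lay below the WT mean by less than the test could call, by 0.32, 0.17 and 0.41 with an SE of 0.24. The member differences in these 3 tissues ran from −0.54 to 0.94.

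The stages of the bladder show when these genes change. Between E15 and E18 in WT bladder 10 of the 15 member probe sets rose and none fell, where 42.9% of all probe sets passed and 17.6% rose. Cdkn1a 1424638_at rose from 8.45 and 8.40 to 11.10 and 10.70 (difference 2.47, SE 0.24, adjusted p = 2.91e-07). In KO it rose from 8.50 and 8.88 to 10.57 and 10.84 (difference 2.01, SE 0.24, adjusted p = 2.77e-06). In KO 9 rose and 1 fell over the same interval, where 46.1% passed and 19.8% rose. All 10 KO calls were lost with the actin difference as a covariate, with adjusted p from 0.193 to 0.813, and the actin difference was highest in the KO E15 arrays.

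Trp63 rose in WT bladder between E15 and E18 by all 3 probe sets past the filter, by 1.66 for 1418158_at (SE 0.38, adjusted p = 0.00161), 1.96 for 1459581_at (adjusted p = 5.58e-05) and 1.25 for 1452027_a_at (adjusted p = 4.71e-05). The same 3 rose in KO, with differences of 1.17 for 1418158_at, 1.11 for 1459581_at and 0.88 for 1452027_a_at, and with adjusted p of 0.0154, 0.00625 and 0.000972. Of these KO calls, the first was lost without KO E15 replicate 1 or either KO E18 array, and the second without KO E15 replicate 1 or KO E18 replicate 1. Between E18 and E19, 1418158_at fell by 1.79 in KO (adjusted p = 0.00034) and read 0.44 lower in WT without passing the test (difference −0.44, adjusted p = 0.315). The difference between the KO effects at E19 and E18 was −1.35 for this probe set and did not pass (SE 0.54, adjusted p = 0.159). Over the same interval 1452027_a_at fell by 1.46 in both genotypes (adjusted p = 1.2e-06 in WT and 1.33e-06 in KO), and 1459581_at did not pass in either. The member that fell in KO between E15 and E18 was Sesn1 1438931_s_at (difference −0.90, adjusted p = 0.00189).

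Between E18 and E19 the genotypes diverged for Sesn1. In WT bladder 1454699_at rose from 10.06 and 10.001 to 11.94 and 12.01 (difference 1.95, SE 0.18, adjusted p = 8.71e-09). In KO it read 10.13 and 10.39 at E18 and 10.51 and 10.47 at E19 (difference 0.23, adjusted p = 0.266). The difference between the KO effects at E19 and E18 was −1.71 for 1454699_at (SE 0.25, adjusted p = 0.000608) and −1.37 for 1433711_s_at (SE 0.26, adjusted p = 0.00463), and both held with any 1 of the 8 arrays left out. In that test 5.33% of all probe sets passed, and 9.31% in the test of E19 against E15. The third, 1438931_s_at, rose in both genotypes, by 1.77 in WT (adjusted p = 3.58e-07) and 1.399 in KO (adjusted p = 8.55e-06). The probe sets of Sesn1 therefore do not give the same account of the KO bladder.

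Cdkn1a followed a like course, with a weaker test. Probe set 1421679_a_at rose in WT from 8.82 and 8.35 at E18 to 9.99 and 10.08 at E19 (difference 1.45, SE 0.28, adjusted p = 0.000138), and in KO read 8.79 and 8.56, then 8.99 and 8.93 (difference 0.28, adjusted p = 0.394). The difference of the KO effects at E19 and E18 was not past the threshold over all arrays for either probe set. Phlda3 rose between E18 and E19 in both genotypes, by 0.81 in WT (adjusted p = 0.00108) and 1.54 in KO (adjusted p = 7.82e-07). Trp73 rose by 1.17 in WT (adjusted p = 0.00029) and 1.35 in KO (adjusted p = 6.6e-05).

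Mdm2 1423605_a_at fell by 1.09 in WT (adjusted p = 5.29e-08) and by 1.11 in KO (adjusted p = 4.07e-08) between E18 and E19. The second Mdm2 probe set, 1427718_a_at, rose by 0.62 in WT (adjusted p = 0.0106) and read 0.07 higher in KO (adjusted p = 0.768). The WT rise was lost without WT E18 replicate 2 or WT E19 replicate 2, with adjusted p between 0.0597 and 0.169. The fits of E19 against E18 call much of the array, 65.7% of all probe sets in WT and 64.5% in KO, and 13 and 9 of the 15 members. The medians of the E19 arrays were 7.48 to 7.53 and those of the other arrays 7.73 to 7.86, and the median of all probe sets tested shifted by −0.14 in WT and −0.12 in KO. All E19 arrays being bladder, that shift and the stage cannot be told apart, and centring each array on its median lost 1 of the 22 calls, the fall of Ccng1 1420827_a_at in KO (adjusted p = 0.298).

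**Figure D4:**
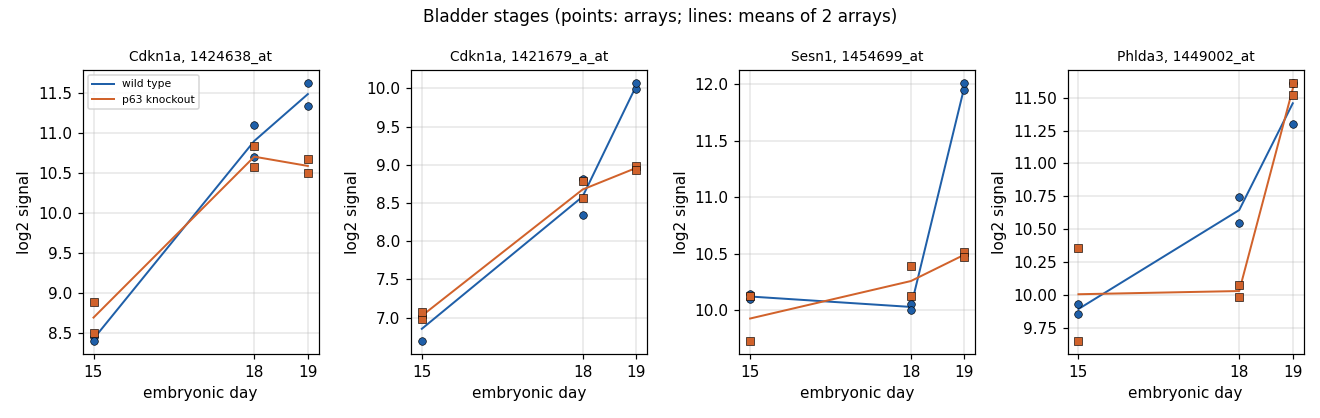
Log2 signal (vertical axes, each with its own range) of Cdkn1a, Sesn1 and Phlda3 probe sets in bladder at embryonic days 15, 18 and 19 (horizontal axis). Circles are WT arrays, squares are arrays labelled p63 KO, and lines join means of 2 arrays. For Sesn1 1454699_at the WT arrays reach 11.94 and 12.01 at E19 while the KO arrays stay at 10.51 and 10.47, whereas Phlda3 rises in both genotypes.

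Other genes of the p53 network moved in both directions. Each gene was read by its probe set of highest mean. In proximal stomach 6 of 13 arrest and repair targets were higher in KO and 3 lower, where 17.7% of all 13613 genes were higher and 14.2% lower. The lower ones were Sfn, which encodes the cell cycle brake 14-3-3 sigma of stratified epithelia (−1.39, SE 0.25, adjusted p = 0.000218), Plk3 (−1.08, adjusted p = 0.00169) and the phosphatase gene Ppm1d (−1.003, adjusted p = 0.00014). The antiproliferative gene Btg2 was higher (0.91, adjusted p = 0.00602). Among 10 death targets 3 were higher and 1 lower: Pmaip1, the gene of the BH3-only protein Noxa (2.31), Trp53i11 (0.75) and Apaf1 (0.66) against the nuclease gene Aen (−1.04, adjusted p = 2.6e-05). Pmaip1 varied most, with an SD of 1.70 between the WT arrays. The median difference was 0.31 over the arrest and repair list and −0.23 over the death list, against 0.02 over all genes.

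Of 6 paralogs of the targets 4 were higher in KO proximal stomach and 1 lower, where 17.7% of all genes were higher and 14.2% lower. Phlda1 was higher by 2.93 (SE 0.18, adjusted p = 4.39e-11) and Phlda2 by 1.18 (adjusted p = 0.00307), opposite to Phlda3. Cdkn1c, the gene of the p21 relative p57, was higher by 1.32 (adjusted p = 4.71e-05), opposite to Cdkn1a, while Sesn3 was lower (−0.76, adjusted p = 0.00316), as was Sesn1. In the other 6 comparisons no paralog passed the test.

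In E19 bladder 3 of 13 arrest and repair targets were higher and 3 lower, where 13.4% of all genes were higher and 6.49% lower. Btg2 (1.38, SE 0.23, adjusted p = 0.000398) and the RNA-binding protein gene Zmat3 (0.65) were among the higher ones, and Sfn (−1.27) and Trp53inp1 (−1.04) among the lower. Of 10 death targets Perp, a desmosome gene that is also a p63 target (−0.96, SE 0.19, adjusted p = 0.00125), and Aen (−0.82, adjusted p = 0.00103) were lower and none higher. Perp did not pass in proximal stomach (−0.30, adjusted p = 0.258).

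Cell cycle genes that p21 holds down through the DREAM and Rb complexes were higher in KO in E19 bladder and lower in KO in proximal stomach, and the difference between these effects was not tested. In E19 bladder 9 of 13 were higher in KO and none lower, where 13.4% of all genes were higher and 6.49% lower. Bub1 (1.04, SE 0.16, adjusted p = 0.000163), Birc5 (0.91), Aurka (0.89) and Ccna2 (0.72) were at the top. In proximal stomach 6 of 13 were lower and none higher, where 14.2% of all genes were lower and 17.7% higher. Cdc20 (−0.81, SE 0.19, adjusted p = 0.00224), Cdc25c (−0.68), Mki67 (−0.63) and Aurka (−0.56) were at the top. Their median difference was 0.59 in E19 bladder, against 0.09 over all genes, and −0.37 in proximal stomach, against 0.02. Cdkn1a itself was lower in KO in both by at least 1 probe set. In E18 bladder 2 of 13, Bub1 (−0.70) and Ccnb2 (−0.51), were lower, where 2.57% of all genes passed and 1.37% were lower.

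Regulators of p53 were called in both directions. Of 15 measured, 2 were higher and 2 lower in E19 bladder, where 13.4% of all genes were higher and 6.49% lower, among them the checkpoint kinase genes Chek1 (1.23, adjusted p = 0.000374) and Chek2 (0.69, adjusted p = 0.00414) and the deacetylase gene Sirt1 (−0.77, adjusted p = 0.0014). In proximal stomach 2 were higher, Ep300 (0.52) and Itch (0.45), and 2 lower, Ppp1r13b (−0.65) and Usp7 (−0.22), where 17.7% of all genes were higher and 14.2% lower. In E18 bladder Chek2 alone of the 15 was called and was lower (−0.81, adjusted p = 0.00614), where 2.57% of all genes passed and 1.37% were lower. In E15 bladder Ppp1r13b was higher (0.69) and Sirt1 (−0.52) and Crebbp (−0.34) were lower. There 7.35% of all genes passed, 4.76% higher and 2.59% lower. The death target Apaf1 was lower in E15 bladder (−0.49, adjusted p = 0.00812). The actin 3′ to 5′ difference at E15 was 0.69 and 0.78 in WT and 1.33 and 1.12 in KO. Its part in the E15 calls of Apaf1, Ppp1r13b, Sirt1 and Crebbp was not tested. In distal stomach, small intestine and large intestine no gene of these 5 lists passed with limma, and 0%, 0% and 0.0882% of all 13613 genes did.

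The genes most parallel to Cdkn1a 1424638_at over the 14 group means were Gadd45b (r = 0.95), Btc (r = 0.94), Mfsd6 (r = 0.93), Cnppd1 (r = 0.91) and Mapkapk3 (r = 0.91). Gadd45b is a stress-induced relative of the p53 target Gadd45a, and Btc encodes an epidermal growth factor receptor ligand. Among the members themselves, Phlda3 ran closest to Trp73 (r = 0.86) and to Trp63 1418158_at (r = 0.73), and Cdkn1a showed r of −0.06 with Trp63. These values describe 14 group means that share tissues, and carry no test.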

How the data were processed

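Total RNA of 28 samples (14 groups of 2) was labelled with a 3′ in vitro transcription kit and hybridised to Affymetrix arrays, per the labels' protocols. The submitters' processing notes name Affymetrix Expression Console and Partek and do not state how arrays were normalized. The deposited values are log2 signals per probe set, from 2.98 to 15.4, used as deposited. Arrays carry no read depth, so their number limits the precision. Of 45037 probe sets, after 64 control probe sets were left out, 34945 had 1 gene symbol, 932 several and 9160 none in the platform annotation. Probe sets with several symbols were not named.

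The 28866 probe sets above their array's median on at least 2 arrays entered a linear model (limma 3.58.1 under R 4.3.3) with a mean per group, an empirical Bayes step with a variance trend, and Benjamini-Hochberg adjustment over all of them (two-sided). Calls are adjusted p values under 0.05. An exact permutation test of 2 against 2 cannot go below 0.333 and was not used. Differences between KO effects and between stages were contrasts of the same fit. The fit was tested on simulated data.

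Named were all member probe sets, up to 4 called genes with the largest change per list, and the 5 genes most correlated with Trp63 and Cdkn1a. The members and the gene lists were chosen with earlier results of these data known. Alternatives were no filter, a filter at the 75th percentile, median centring, quantile normalization, array weights, a replicate block, an actin covariate, no variance trend, only the arrays compared, and each array left out. Promoter sequences came from RefSeq (GRCm38.p6) and were searched with Python 3.11.15. Trp53 was not analysed here.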

Additional observations from a re-analysis of the deposited data

Results flagged for a closer look

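Tests of a difference between 2 KO effects passed for 31 pairs of a member probe set and a comparison, and all are given here in log2 with limma's adjusted p. For 17 of the 31 the call held with any 1 of the 8 arrays of the comparison left out, and for 14 it was lost under some array. With the actin 3′ to 5′ difference as a covariate 18 of the 31 were lost, among them all 5 between E19 and E15 bladder (adjusted p from 0.231 to 0.725) and neither of the 2 between E19 and E18 bladder. Proximal stomach calls so lost were Trp63 1459581_at against distal stomach (0.29) and small intestine (0.0701). Trp63 1452027_a_at was lost against distal stomach (0.0895), small intestine (0.116) and large intestine (0.0709). Phlda3 was lost against E18 bladder (0.419) and distal stomach (0.1), and Ccng1 1420827_a_at against small intestine (0.208). Those of Sesn1 are given below. The comparisons within E18 share the proximal stomach arrays, and those within bladder share the E19 arrays.

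The Trp73 effect in proximal stomach was lower than that in E18 bladder by −2.88 (adjusted p = 3.25e-06), distal stomach by −2.91 (2.79e-06), small intestine by −3.47 (2.35e-07) and large intestine by −3.34 (3.9e-07). These 4 held in all the alternatives run. In the other tissues the Trp73 probe set lay below the array's own median on every array, so each test compares the proximal fall with a tissue of low signal.

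The Trp63 effect in proximal stomach was higher than in E18 bladder by 1.58 for 1418158_at (adjusted p = 0.0439), 2.18 for 1459581_at (0.00117) and 1.34 for 1452027_a_at (0.00129). The first was lost without any 1 of its 8 arrays (adjusted p from 0.0634 to 0.141). Against distal stomach it was higher by 1.41 for 1459581_at (0.0323) and 1.11 for 1452027_a_at (0.00692), and the former was lost without either KO or either WT distal stomach array, KO proximal stomach replicate 2 or WT proximal stomach replicate 1 (0.0502 to 0.16). Against small intestine it was higher by 1.97 for 1459581_at (0.00286) and 0.99 for 1452027_a_at (0.0137), the latter lost without KO small intestine replicate 1 (0.0531). Against large intestine it was higher by 0.97 for 1452027_a_at (0.0172), lost without KO large intestine replicate 1, WT large intestine replicate 2 or replicate 1 of either proximal stomach group (0.0528 to 0.0658). In bladder the effect on 1418158_at was lower at E19 than at E15 by −1.83 (0.0361), lost without 6 of the 8 arrays, all but KO E15 replicate 1 and WT E19 replicate 1 (0.0762 to 0.12). Outside proximal stomach 1452027_a_at lay below the array's own median on every array, and it passed the filter only through that tissue. In distal stomach and intestine the group means of 1459581_at were 4.66 to 5.33, also below the array medians. The differences of these probe sets against those tissues therefore set proximal stomach against low signal.

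The Phlda3 effect in proximal stomach was lower than in E18 bladder by −0.86 (adjusted p = 0.0348), distal stomach by −1.55 (0.000384), small intestine by −1.68 (0.000152) and large intestine by −1.43 (0.000767). The first was lost without 7 of its 8 arrays, all but WT bladder replicate 1 (0.0643 to 0.136). The Ccng1 1420827_a_at effect in proximal stomach was higher than in E18 bladder by 0.63 (0.0055), small intestine by 0.52 (0.0218) and large intestine by 0.63 (0.00603). The second was lost without KO proximal stomach replicate 2, WT proximal stomach replicate 1, KO small intestine replicate 2 or WT small intestine replicate 1 (0.0667 to 0.144), and the third without KO proximal stomach replicate 2 or WT large intestine replicate 1 (0.0529 to 0.0559).

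The Sesn1 effect in proximal stomach was lower than in E18 bladder by −0.95 for 1433711_s_at (adjusted p = 0.0152) and −1.08 for 1454699_at (0.00467), than in distal stomach by −0.92 (0.0206) and −0.80 (0.0384), and than in small intestine by −0.87 for 1433711_s_at (0.0257). The bladder difference of 1433711_s_at was lost without KO bladder replicate 2, WT bladder replicate 1, KO proximal stomach replicate 2 or WT proximal stomach replicate 1 (0.056 to 0.0991). Both distal stomach differences were lost without KO distal stomach replicate 2, WT distal stomach replicate 1, KO proximal stomach replicate 2 or WT proximal stomach replicate 1 (0.0531 to 0.136 for 1433711_s_at and 0.12 to 0.235 for 1454699_at). The small intestine difference was lost without KO proximal stomach replicate 2, WT proximal stomach replicate 1, KO small intestine replicate 2 or WT small intestine replicate 2 (0.103 to 0.136).

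In bladder the Sesn1 effect at E19 was lower than at E15 by −1.44 for 1433711_s_at (adjusted p = 0.00261), −1.11 for 1438931_s_at (0.0257) and −1.29 for 1454699_at (0.00449), each lost with the actin covariate (0.286, 0.651 and 0.269), and lower than at E18 by −1.37 for 1433711_s_at (0.00463) and −1.71 for 1454699_at (0.000608). The E15 difference of 1438931_s_at was lost without 7 of its 8 arrays, all but KO E15 replicate 1 (0.057 to 0.0867). The Cdkn1a 1424638_at effect at E19 was lower than at E15 by −1.16 (0.0377), lost without 6 of its 8 arrays, all but KO E15 replicate 1 and WT E19 replicate 2 (0.0711 to 0.127).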

How the results depend on the processing

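The counts of member probe sets called in E19 bladder (6) and proximal stomach (8) stayed within 1.5 times under every alternative except one: with the actin covariate the proximal stomach count was 4. Leaving out 1 array gave 4 to 5 at E19 and 6 to 8 in proximal stomach. The E15 bladder count of 1 became 0 without the filter, with the filter at the 75th percentile, with quantile normalization, with array weights, with the replicate block, with the actin covariate and with only the arrays compared, and ranged from 0 to 1 with 1 array left out. The E18 bladder count of 0 became 1 with array weights, with the replicate block and with only the arrays compared, and ranged from 0 to 1 with 1 array left out. The causes were not tested. The counts of 0 in distal stomach, small intestine and large intestine remained 0 throughout. The labels do not say what a replicate number shares. The deviations of same-numbered KO and WT arrays correlated at −0.13 to 0.29 and over 0.1 in 3 of 7 comparisons. These were proximal stomach (0.29), distal stomach (0.28) and large intestine (0.26), and such values cannot settle whether replicate numbers pair the arrays. The block gave 9 calls in proximal stomach, adding Cdkn1a 1424638_at (adjusted p = 0.0218). Its call in E18 bladder was Sesn1 1438931_s_at (adjusted p = 0.0443). No called difference changed direction under any alternative run. The 2 arrays a group limit the precision, and leaving out 1 array assumes that the lone array varies like the other groups.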
